A study of Homo sapiens with 4 samples.

Results

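The FOXO genes and a set of their known target genes were examined in PANC-1, an established human pancreatic cancer cell line of epithelial origin, after knockdown of SIRT1. The members were taken by gene symbol and comprised 3 FOXO factors, FOXO1, FOXO3 and FOXO4, and 7 targets, IRS2, KLF2, KLF6, TXNIP, CAT, CITED2 and FBXO32, so that they made up 10 of the 16878 genes with values. PANC-1 cells were transfected for 48 h with a control siRNA (Control, n = 2 libraries) or with an siRNA against SIRT1 (siSIRT1, n = 2 libraries), and total RNA was sequenced. Nothing in the labels says that the 2 libraries of a group came from separate cultures, so p-values measure the spread between these libraries, which may be technical. The comparison addressed whether the mRNA of the FOXO factors and of genes they control differed when SIRT1 was depleted.

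FOXO proteins are forkhead transcription factors that switch on genes for cell cycle arrest, apoptosis, autophagy, antioxidant defense and fasting metabolism. Insulin and growth factor signals act through the kinase AKT, which phosphorylates FOXO proteins so that they are held in the cytoplasm. SIRT1, an NAD-dependent deacetylase, removes acetyl groups from FOXO proteins, a change in the protein that mRNA levels do not show. In epithelial tumors FOXO factors are known mainly for restraining growth.

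Values are FPKM, read fragments scaled by transcript length and by library size, so levels are per length and can be compared between genes. Genes that averaged 1 FPKM or more across the 4 libraries were tested with limma on log2(FPKM + 1), a scale that understates the change of weakly expressed genes, and a gene passed with a Benjamini-Hochberg adjusted p under 0.05 over the 12191 genes tested. SIRT1 itself, the targeted gene, had 10.46 and 10.25 FPKM in Control but 1.8 and 2.05 in siSIRT1. Its mean level in siSIRT1 was 18.6% of Control, with a log2 fold change of -1.96 (SE 0.11) and an adjusted p of 1.33e-05 by limma. Between 12123 and 12171 genes reached 1 FPKM in each library. The tables hold no read counts. The spacing of low FPKM values in short single-exon genes put the depth at roughly 8680000 to 9190000 reads a library. The search covered only a preset range of depths, with a fixed length offset of 80 bases, so a depth outside that range could not be returned. The score of fit to even steps was 0.477 to 0.549, against 0.237 to 0.307 after random jitter of the values. Approximate reads given for a gene rest on that estimate and on annotated transcript lengths. The summed FPKM of 5 epithelial markers (KRT7, KRT8, KRT18, KRT19 and EPCAM) lay between 3972 and 4194 in Control and between 4674 and 5067 in siSIRT1. The summed FPKM of 3 endothelial markers (PECAM1, VWF and CDH5) was at most 0.81 in any library, and that of 3 acinar markers (PRSS1, CPA1 and CELA3A) at most 0.15, with 1 of the 3 at 0 in all 4 libraries. The endocrine marker CHGA was listed at 0 in all 4 libraries, and 2 leukocyte markers (PTPRC and LYZ) summed to between 16.5 and 20.5. That sum was mostly LYZ, at 15.31 to 19.54 FPKM, while PTPRC was at 0.97 to 1.29. The epithelial sum was mostly KRT8, KRT18 and KRT19, while KRT7 was at 2.89 to 4.04 FPKM. The further markers CD3E, INS and GCG had no values. In bulk RNA, fewer cells of a type and less RNA per cell cannot be told apart.

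Promoter sequences are shown because FOXO factors act on their targets, and on FOXO genes themselves, through short DNA elements near the start. RefSeq windows of 300 bases (GRCh38.p14), ending 50 bases after an annotated start, were found for 9 of the 10 members, 15 windows in all. The windows were searched on both strands for the forkhead core elements GTAAACA and ATAAACA and for CAAAACAA, the core of an insulin response element. These letters occurred in windows of 4 members, and they are printed below 5′ to 3′ on the gene's strand with the matching bases in capitals.
TXNIP, chr1:145996530-145996829, minus strand: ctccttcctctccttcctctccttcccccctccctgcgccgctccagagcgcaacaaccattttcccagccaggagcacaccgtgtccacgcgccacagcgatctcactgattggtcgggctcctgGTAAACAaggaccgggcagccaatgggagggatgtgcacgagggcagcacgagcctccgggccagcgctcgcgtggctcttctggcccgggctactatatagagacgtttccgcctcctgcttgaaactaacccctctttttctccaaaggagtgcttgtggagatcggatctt
FOXO4, chrX:71095601-71095900, plus strand: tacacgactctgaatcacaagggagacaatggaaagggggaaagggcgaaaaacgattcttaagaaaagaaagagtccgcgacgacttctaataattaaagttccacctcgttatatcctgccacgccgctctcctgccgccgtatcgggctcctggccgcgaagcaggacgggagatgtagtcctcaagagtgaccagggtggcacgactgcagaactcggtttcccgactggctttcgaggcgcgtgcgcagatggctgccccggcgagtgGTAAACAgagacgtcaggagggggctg
FOXO3, the second of its windows, chr6:108560667-108560966, plus strand: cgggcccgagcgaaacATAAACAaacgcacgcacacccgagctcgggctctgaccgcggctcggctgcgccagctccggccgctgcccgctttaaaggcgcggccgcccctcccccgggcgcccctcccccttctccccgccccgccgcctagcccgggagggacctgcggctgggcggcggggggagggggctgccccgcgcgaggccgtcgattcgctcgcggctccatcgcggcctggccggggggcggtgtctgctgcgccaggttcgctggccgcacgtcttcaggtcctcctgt
IRS2, chr13:109786534-109786833, minus strand: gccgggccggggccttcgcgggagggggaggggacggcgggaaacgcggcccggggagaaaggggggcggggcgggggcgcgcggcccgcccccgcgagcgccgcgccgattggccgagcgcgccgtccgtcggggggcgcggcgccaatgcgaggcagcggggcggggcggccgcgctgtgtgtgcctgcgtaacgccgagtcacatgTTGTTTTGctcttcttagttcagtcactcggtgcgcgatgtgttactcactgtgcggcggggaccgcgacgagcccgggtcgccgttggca

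The TXNIP window held GTAAACA beginning at position -124 from the start and the FOXO4 window held it at position 23 after the start. The FOXO3 window held ATAAACA at position -234. The IRS2 window held CAAAACAA on the opposite strand at position -41, where it reads TTGTTTTG in the printed strand. Over all 35116 windows, GTAAACA was present in 3.42%, ATAAACA in 4.24% and CAAAACAA in 1.68%. Counted by gene, as the members were, the shares of 27305 genes were 4.19%, 5.16% and 2.08%. The share of genes with any of the 3 elements was not counted. A match describes the letters only, and no occupancy of these windows was measured in these libraries.

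The FOXO factors differed widely in level. In Control, FOXO3 mRNA was the most abundant, at 14.13 and 14.54 FPKM, which placed its mean at the 71.8 percentile of all genes. FOXO4 was at 1.74 and 1.52 FPKM, and FOXO1 was at 0.67 and 0.64. The 3 levels did not overlap in Control. FOXO6, the remaining FOXO gene of the human genome, which was not a member, was at 2.09 and 1.98. FOXO3 thus made up 75.8% and 77.8% of the summed FPKM of the 4 FOXO genes in Control, and 75.5% and 81.8% in siSIRT1. The sum itself was 18.63 and 18.68 FPKM in Control against 16.58 and 18.42 in siSIRT1. Both siSIRT1 libraries lay below both Control libraries, but siSIRT1 replicate 2, at 18.42, was close to them. The sum was not tested, and the groups did not overlap for 69.0% of all genes tested.

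FOXO3 (Entrez gene 2309, GRCh37 chromosome 6, 108881038 to 109005977), a FOXO factor with roles in apoptosis and stress resistance, was at 12.52 and 15.07 FPKM in the siSIRT1 libraries. One of these lay below and the other above both Control libraries, so the groups overlapped. The mean was 14.3 ± 0.29 FPKM in Control and 13.8 ± 1.80 in siSIRT1 (SD, n = 2 each). The log2 fold change was -0.06 (SE 0.10), with a 95% confidence interval from -0.29 to 0.17 and an adjusted p of 0.692 by limma. FOXO3 did not pass the test, and the interval includes both lower and higher levels. Without siSIRT1 replicate 1 the log2 fold change was 0.07, and without siSIRT1 replicate 2 it was -0.18. Of the 50-base windows of the canonical FOXO3 transcript, 37.4% occur also in FOXO3B on chromosome 17, so the value is uncertain where reads could be assigned to either.

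The study reported higher FOXO3 mRNA and protein after stable knockdown of SIRT1 by short hairpin RNA in PANC-1 and AsPC-1 cells. Those cells differ in reagent and duration from the 48 h siRNA libraries here. The study also assayed a site named as the FOXO3 promoter by chromatin immunoprecipitation with quantitative PCR (qChIP). There it reported binding of SIRT1 and of the ubiquitin ligase components CUL4B and DDB1. Histone marks were altered after knockdown of SIRT1, and similarly after that of CUL4B or DDB1. The study also named FOXO3 among the genome-wide targets of SIRT1 and CUL4B, and reported by repeated immunoprecipitation that SIRT1 and the ligase occupy its promoter together. The position of the qChIP amplicon was read from its primers because it bears on which start the site belongs to. Each primer matched the GRCh37 genome once, and together they bound 189 bases at chr6:108974919-108975107. The amplicon is printed on the plus strand with the primer sites in capitals.
FOXO3 amplicon: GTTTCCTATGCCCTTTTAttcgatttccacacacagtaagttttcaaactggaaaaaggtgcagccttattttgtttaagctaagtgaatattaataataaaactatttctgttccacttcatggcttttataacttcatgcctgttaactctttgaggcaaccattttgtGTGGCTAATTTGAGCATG

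The amplicon lies in intron 1 of the 2 introns of the canonical FOXO3 transcript. It begins 92.8 kb after the canonical start at position 108882120, and it ends 2442 bases before the nearest annotated start, that of a shorter transcript at position 108977549. The FPKM value pools the transcripts of the gene, so it cannot assign FOXO3 mRNA to either start. The primers listed for FOXO3 mRNA (forward cggacaaacggctcactct and reverse ggacccgcatgaatcgactat) matched 2 of the 3 annotated FOXO3 transcripts, with a product of 150 bases. The forward primer was absent from the shorter transcript that begins near the amplicon.

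**Figure D1:**
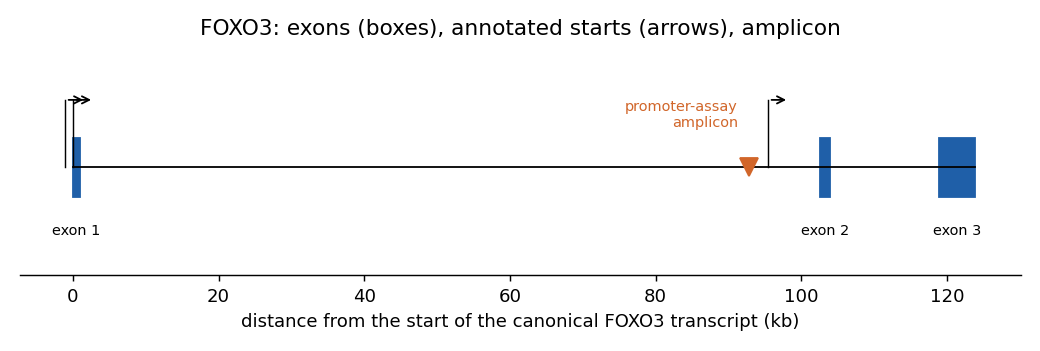
The horizontal axis is the distance in kb from the canonical FOXO3 start, boxes are the 3 exons of the canonical transcript, arrows are the 3 annotated transcript starts, and the triangle is the qChIP amplicon. The amplicon sits 92.8 kb inside the gene, in intron 1, just before the start of the shorter transcript.

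FOXO4 (Entrez gene 4303, chromosome X, 70315701 to 70323382), a FOXO factor controlled by AKT like its relatives, was at 1.59 and 0.94 FPKM in siSIRT1. One siSIRT1 library fell within the Control range of 1.52 to 1.74, so the groups overlapped. The log2 fold change was -0.23 (SE 0.17), with a 95% confidence interval from -0.62 to 0.16 and an adjusted p of 0.325 by limma. FOXO4 did not pass. Its value moved with single siSIRT1 libraries, to -0.44 (adjusted p 0.076 by limma) without siSIRT1 replicate 1 and to -0.02 without siSIRT1 replicate 2.

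FOXO1 (Entrez gene 2308, chromosome 13, 41129804 to 41240778), a main mediator of insulin action on gene expression, was at 0.88 and 1.32 FPKM in siSIRT1. Both siSIRT1 libraries lay above both Control libraries, with means of 1.1 ± 0.31 and 0.655 ± 0.02 FPKM (SD, n = 2 each). With a mean under 1 FPKM over the 4 libraries FOXO1 was not tested. When the filter was dropped, its log2 fold change was 0.34 (SE 0.12), with a 95% confidence interval from 0.00 to 0.67 and an adjusted p of 0.136 by limma over 16453 genes. The values rest on roughly 33 to 35 reads a library in Control and 44 to 69 in siSIRT1. In the canonical FOXO1 transcript 22.8% of the 50-base windows occur also in another annotated gene, ENSG00000288542. The FOXO1 value is uncertain where reads could be assigned to either. FOXO6 was at 1.59 and 1.09 FPKM in siSIRT1, below both Control libraries, with a log2 fold change of -0.38 (SE 0.15), a 95% confidence interval from -0.73 to -0.04 and an adjusted p of 0.0775 by limma. Of the 3 FOXO genes tested, FOXO3, FOXO4 and FOXO6, limma called 0 at an adjusted p under 0.05, where 37.1% of all genes tested passed. With 3 genes this count is a description only. The unadjusted p of FOXO6 was 0.0331 by limma. FOXO6 passed with the replicate number as a block (log2 fold change -0.38, adjusted p 0.0455 by limma) and without siSIRT1 replicate 1 (-0.54, adjusted p 0.0352 by limma), and FOXO3 and FOXO4 passed in none of the 11 other fits.

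**Figure D2:**
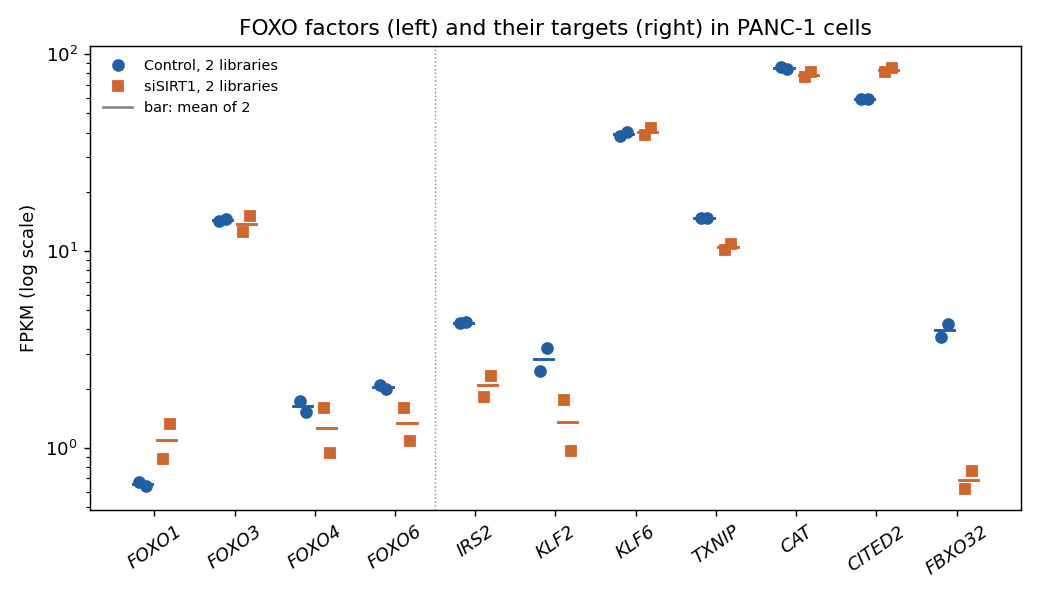
FPKM on a log axis for FOXO1, FOXO3, FOXO4 and FOXO6 (left of the dotted line) and the 7 targets (right), with 1 point per library, circles for Control, squares for siSIRT1 and bars for the mean of 2 libraries. FBXO32, IRS2, KLF2 and TXNIP lie lower in both siSIRT1 libraries, CITED2 lies higher, and the groups overlap for FOXO3, FOXO4 and KLF6.

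Most of the targets passed the test, the larger number of them lower in siSIRT1. Of the 7 targets, all tested, 4 fell (FBXO32, IRS2, KLF2 and TXNIP), 1 rose (CITED2) and 2 did not pass (CAT and KLF6). Over all 9 members tested, 5 passed, against 37.1% of all genes tested, and the direction was higher for 1, against 24.0% of all genes, and lower for 4, against 13.1%. The 2 groups did not overlap for 6 of the 9, against 69.0% of all genes tested. The median log2 fold change was -0.23 over the 9 members and -0.45 over the 7 targets, while that of all genes tested was 0.07. The members were chosen with earlier results known, so these counts are a description.

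FBXO32 (Entrez gene 114907, chromosome 8, 124510129 to 124553446), which encodes atrogin-1, the substrate receptor of a ubiquitin ligase that FOXO factors induce in wasting muscle, differed most among the members. It had 3.67 and 4.25 FPKM in Control but 0.62 and 0.76 in siSIRT1. The groups did not overlap, and the siSIRT1 mean of 0.69 ± 0.10 FPKM was 17.4% of the Control mean of 3.96 ± 0.41 (SD, n = 2 each), or 5.74-fold lower. The log2 fold change was -1.55 (SE 0.14) with an adjusted p of 9.91e-05 by limma. With a pseudocount of 0.1 in place of 1 it was -2.36, a difference of scale that weakly expressed genes show. The approximate reads were 225 and 260 in Control and 36 and 46 in siSIRT1. FBXO32 met the filter of 1 FPKM through Control, and with no filter its adjusted p was 0.00692 by limma. FBXO32 moved from rank 7 among the 10 members in Control to rank 10 in siSIRT1, below FOXO1.

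IRS2 (Entrez gene 8660, chromosome 13, 110405042 to 110438930), an adaptor that carries the signal of the insulin receptor to phosphoinositide 3-kinase and whose promoter holds the insulin response element letters printed above, had 4.31 and 4.34 FPKM in Control but 1.82 and 2.33 in siSIRT1. The Control libraries were nearly equal, and both siSIRT1 libraries were lower. The siSIRT1 mean of 2.08 ± 0.36 FPKM was 48% of the Control mean of 4.32 ± 0.02 (SD, n = 2 each), and the log2 fold change was -0.80 (SE 0.13) with an adjusted p of 0.00207 by limma. IRS1, the related adaptor, chosen for mention after its values were seen, had 17.66 and 16.91 FPKM in Control, with 15.22 and 18.59 in siSIRT1, so its groups overlapped.

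KLF2 (Entrez gene 10365, chromosome 19, 16435637 to 16439496), a Krüppel-like factor known for keeping endothelial cells and lymphocytes quiescent, had 2.46 and 3.22 FPKM in Control but 1.76 and 0.96 in siSIRT1. Both siSIRT1 libraries were lower than both Control libraries, but the libraries of each group were spread. The siSIRT1 mean of 1.36 ± 0.57 FPKM was 47.9% of the Control mean of 2.84 ± 0.54 (SD, n = 2 each), and the log2 fold change was -0.72 (SE 0.19) with an adjusted p of 0.0171 by limma. The call rested on single libraries. Without Control replicate 2 the log2 fold change was -0.57 with an adjusted p of 0.0919, and without siSIRT1 replicate 2 it was -0.47 with an adjusted p of 0.0747, both by limma. The filter mattered as well, since with all genes kept the adjusted p by limma was 0.0894. The values rest on roughly 24 to 81 reads a library.

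KLF6 (Entrez gene 1316, chromosome 10, 3818188 to 3827473), a Krüppel-like factor regarded as a tumor suppressor, had 38.18 and 40.21 FPKM in Control, with 38.79 and 42.06 in siSIRT1, so the groups overlapped. The log2 fold change was 0.04 (SE 0.07), with a 95% confidence interval from -0.12 to 0.20 and an adjusted p of 0.666 by limma. Its sign turned under each of 3 other scalings of the libraries, to between -0.04 and -0.02. KLF6 did not pass.

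TXNIP (Entrez gene 10628, chromosome 1, 145438490 to 145442635), an alpha-arrestin that binds thioredoxin and restrains glucose uptake, had 14.72 and 14.65 FPKM in Control but 10.11 and 10.87 in siSIRT1. The groups did not overlap, with the siSIRT1 mean of 10.5 ± 0.54 FPKM at 71.4% of the Control mean of 14.7 ± 0.05 (SD, n = 2 each). TXNIP fell with a log2 fold change of -0.45 (SE 0.09) and an adjusted p of 0.00402 by limma. Its promoter holds the GTAAACA element printed above, as does that of FOXO4, which did not pass.

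CAT (Entrez gene 847, chromosome 11, 34460481 to 34493607), catalase, which breaks down hydrogen peroxide in peroxisomes, was the most abundant member in Control, at 86.04 and 84.09 FPKM. It was at 76.33 and 80.98 in siSIRT1, and both of these were below both Control libraries. The siSIRT1 mean was 92.5% of Control, and the log2 fold change was -0.11 (SE 0.06), with a 95% confidence interval from -0.25 to 0.02 and an adjusted p of 0.178 by limma. CAT did not pass as tested, but it did after quantile normalization (log2 fold change -0.18, adjusted p 0.0477 by limma) and after median-of-ratios scaling (-0.20, adjusted p 0.044 by limma).

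CITED2 (Entrez gene 10370, chromosome 6, 139692944 to 139695785), a coregulator that competes with the hypoxia factor HIF1A for the coactivators CBP and EP300, was the only member tested that rose by this test. It had 59.51 and 59.36 FPKM in Control but 80.97 and 84.61 in siSIRT1. The Control libraries were nearly equal and both siSIRT1 libraries were higher, with means of 59.4 ± 0.11 and 82.8 ± 2.57 FPKM (SD, n = 2 each), a ratio of 1.39. The log2 fold change was 0.47 (SE 0.06) with an adjusted p of 0.000501 by limma. In the order of levels CITED2 was below CAT in Control, without overlap, while in siSIRT1 the values of CITED2 and CAT overlapped.

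**Figure D3:**
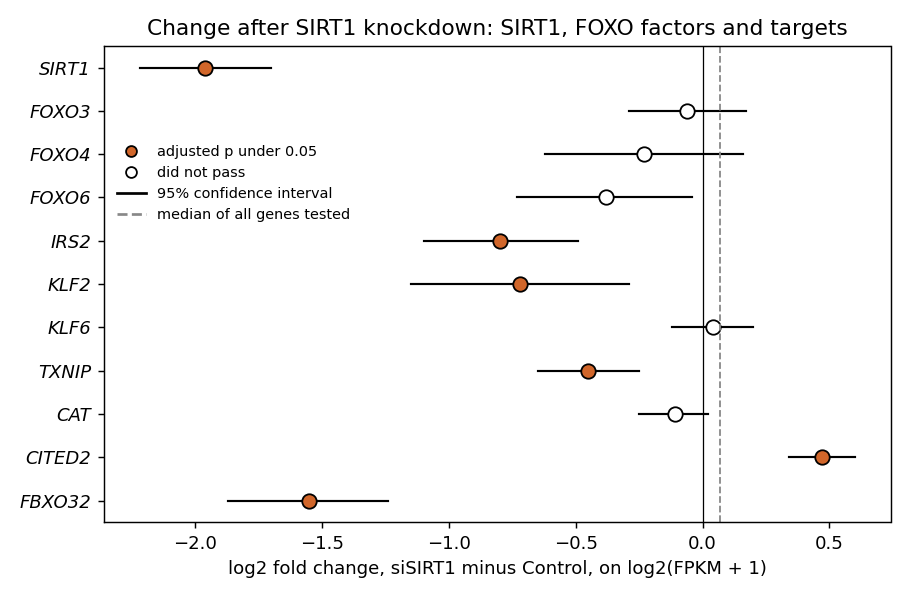
Log2 fold change (siSIRT1 minus Control, on log2(FPKM + 1)) with its 95% confidence interval for SIRT1, FOXO6 and the 9 members tested, with filled points for an adjusted p under 0.05 and a dashed line at 0.07, the median of all genes tested. FBXO32 at -1.55 lies farthest from 0 among the members, and CITED2 at 0.47 is the member on the higher side that passed.

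In Control the order of levels among the members was CAT, CITED2, KLF6, TXNIP, FOXO3, IRS2, FBXO32, KLF2, FOXO4 and FOXO1, and no neighbours in that order overlapped. In siSIRT1 the order was CITED2, CAT, KLF6, FOXO3, TXNIP, IRS2, KLF2, FOXO4, FOXO1 and FBXO32. There the values of CITED2 and CAT, of KLF2 and FOXO4, and of FOXO4 and FOXO1 overlapped. TXNIP, above FOXO3 in Control, was below it in siSIRT1.

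The siRNA against SIRT1 listed by the study is shown because a short match between its guide strand and a transcript is one way in which an siRNA can touch other genes.
siSIRT1: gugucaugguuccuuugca
siSIRT1 antisense strand, seed (bases 2 to 8) in capitals: uGCAAAGGaaccaugacac

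The letters that pair with this seed, CCTTTGC, occurred in the 3′ UTR of FOXO3 (2 times), FOXO4 (1 time) and KLF6 (1 time), and in 15% of the 15733 genes with an annotated 3′ UTR. The other members, FOXO1, IRS2, KLF2, TXNIP, CAT, CITED2 and FBXO32, had 0 matches. These include members that fell, a member that rose and a member that did not pass. A second siRNA was not among the libraries, and the part of this sequence in any value was not tested.

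Other known FOXO target genes were taken from a list of 34, of which 32 had values and 23 were tested. Of these 23, 10 fell, 6 rose and 7 did not pass, and the median log2 fold change was -0.28. Of all genes tested, 24.0% were higher and 13.1% lower. After quantile normalization 12 were lower and 5 higher, where 1996 of all 12191 genes tested were lower and 2279 higher. After median-of-ratios scaling 12 were again lower and 5 higher, against 2053 lower and 2023 higher of all genes. Without the filter 31 were tested, with 8 lower, 5 higher and a median log2 fold change of -0.09. Leaving out 1 library gave a median between -0.30 and -0.20. GABARAPL1, an ATG8 family protein of autophagosomes, had the largest change on log2(FPKM + 1), a scale that understates weakly expressed genes. It went from 12.24 and 11.79 FPKM in Control to 33.94 and 30.83 in siSIRT1 (log2 fold change 1.36, SE 0.08, adjusted p 1.34e-05 by limma). PDK4, a kinase that shuts off pyruvate dehydrogenase in fasting, fell from 1.71 and 1.91 FPKM to 0.36 and 0.41 (log2 fold change -1.02, SE 0.14, adjusted p 0.000833 by limma). As a ratio of means its change was the larger, 4.7-fold lower against 2.7-fold higher for GABARAPL1. PDK4 met the filter of 1 FPKM only through Control, since its siSIRT1 mean was 0.385 FPKM, a low level.

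On log2(FPKM + 1) the next largest changes of the list were falls of a pair of apoptosis genes, BCL2L11 and TNFSF10. Other cell death genes of the list, chosen for mention after their values were seen, did not all fall. BNIP3 rose (log2 fold change 0.35, adjusted p 0.00788 by limma), and BBC3 did not pass (-0.28, adjusted p 0.0541 by limma). BCL2L11, which encodes the BH3-only protein BIM, had 7.69 and 9.65 FPKM in Control but 4.08 and 4.66 in siSIRT1, with a log2 fold change of -0.84 (SE 0.13, adjusted p 0.00144 by limma). TNFSF10, the death ligand TRAIL, had 2.8 and 2.53 FPKM in Control but 1.03 and 1.21 in siSIRT1, with a log2 fold change of -0.79 (SE 0.13, adjusted p 0.00234 by limma). Chosen for mention after their values were seen, SOD2, the mitochondrial superoxide dismutase, rose from 42.63 and 46.87 FPKM to 55.71 and 64.97 (adjusted p 0.00543 by limma). The cyclin-dependent kinase inhibitor CDKN1A rose from 34.44 and 35.16 to 43.64 and 44.61 (adjusted p 0.00357 by limma), whereas its relative CDKN1B fell from 13.18 and 14.47 to 9.66 and 10.97 (adjusted p 0.0139 by limma).

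**Figure D4:**
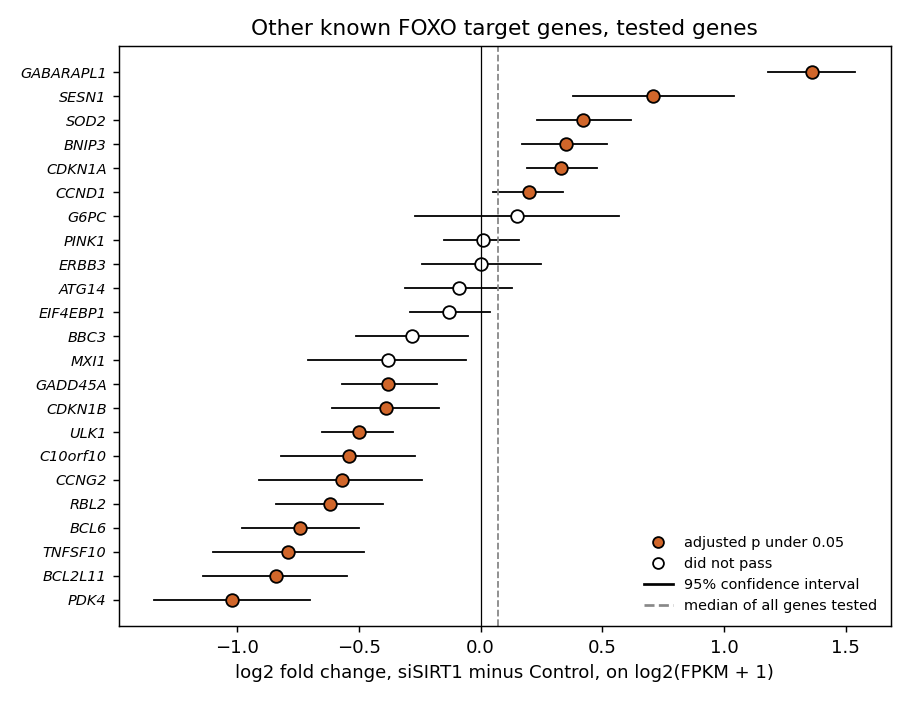
Log2 fold change (siSIRT1 minus Control, on log2(FPKM + 1)) with its 95% confidence interval for the 23 other FOXO target genes tested, ordered by value, with filled points for an adjusted p under 0.05 and a dashed line at 0.07, the median of all genes tested. The list runs from PDK4 at -1.02 to GABARAPL1 at 1.36, with 10 genes lower and 6 higher.

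Upstream of the FOXO factors, 16 genes of the insulin and AKT axis were listed and 15 were tested, of which 5 rose, 1 fell and 9 did not pass (median log2 fold change 0.11), where 24.0% of all genes tested were higher and 13.1% lower. After median-of-ratios scaling 3 were higher and 1 lower, without the filter 2 and 0. The counts were 2 higher and 1 lower without Control replicate 1, and 3 and 0 without Control replicate 2. IGF1R, the receptor for insulin-like growth factors, rose from 11.48 and 12.22 FPKM to 16.42 and 19.94, a log2 fold change of 0.57 (adjusted p 0.00311 by limma). AKT1, a kinase that phosphorylates FOXO proteins, rose from 68.06 and 65.67 FPKM to 92.17 and 84.15, a log2 fold change of 0.39 (adjusted p 0.00211 by limma). PDPK1, the kinase that activates AKT, fell by 0.43 on the log2 scale (adjusted p 0.0213 by limma). AKT2, the most abundant gene of the list, chosen for mention after its values were seen, had 459.45 and 451.64 FPKM in Control, 513.25 and 472.02 in siSIRT1, and did not pass.

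Enzymes that modify FOXO proteins numbered 19, all tested, of which 3 rose, 2 fell and 14 did not pass (median log2 fold change 0.03). Of all genes tested, 24.0% were higher and 13.1% lower. Those that fell were SIRT1, the gene targeted by the siRNA, and SETD7, a lysine methyltransferase, with a log2 fold change of -0.73 for SETD7 (adjusted p 0.00356 by limma). MAPK9, a stress-activated JNK kinase, rose with a log2 fold change of 0.37 (adjusted p 0.0311 by limma), and USP7, a deubiquitinase, with 0.30 (adjusted p 0.0116 by limma). After median-of-ratios scaling 1 gene of the list was higher and 3 were lower, and the number higher was 0 without Control replicate 1 and 1 without Control replicate 2.

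The phosphoserine-binding YWHA proteins, SFN of the same family and the nuclear exporter XPO1, which together keep phosphorylated FOXO proteins out of the nucleus, gave 8 genes, all tested. Of these 4 rose, 1 fell and 3 did not pass (median log2 fold change 0.15), where 24.0% of all genes tested were higher and 13.1% lower. YWHAH rose with a log2 fold change of 0.39 (adjusted p 0.00279 by limma), YWHAB with 0.31 (adjusted p 0.00357 by limma) and YWHAG with 0.29 (adjusted p 0.0268 by limma), while YWHAZ fell by 0.27 on the log2 scale (adjusted p 0.00644 by limma). After median-of-ratios scaling 2 were higher and 2 lower, and without Control replicate 1 or Control replicate 2 the number higher was 1 or 2, with 0 lower.

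**Figure D5:**
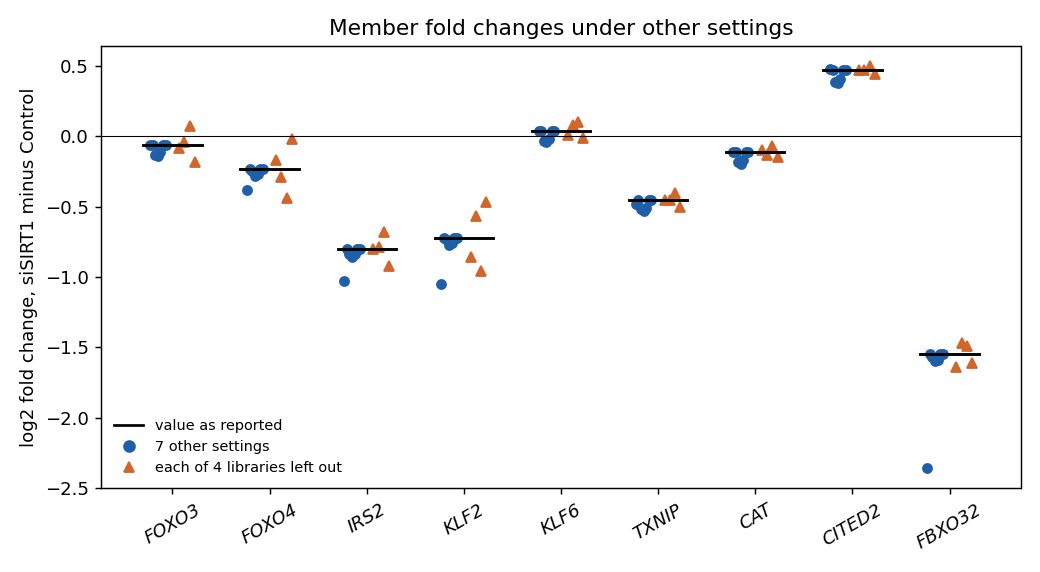
Log2 fold change (siSIRT1 minus Control) of the 9 members tested, with a black line for the value as reported, circles for 7 other settings of the analysis and triangles for leaving out each of the 4 libraries in turn. The values of FBXO32, IRS2, KLF2 and TXNIP stay below 0 and those of CITED2 above 0 under all of these, while FOXO3 and KLF6 have values on both sides of 0.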

How the data were processed

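RNA-seq was done on 4 PANC-1 libraries, 2 Control and 2 siSIRT1, 48 h after transfection. The authors deposited 1 table a library of FPKM values for 16878 genes, with isoforms pooled into the gene. The submitters' processing notes name Bowtie2, HISAT and RSEM, without roles or versions. The genome build of the RNA-seq, its strand setting and the assignment of shared reads are not given in the sources used here. FPKM scales each library to its own total, so abundant genes that change can shift all others. The tables hold no read counts, and the depth estimate of 8680000 to 9190000 reads a library is approximate, so no counting interval is given.

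From these values limma 3.58.1 (R 4.3.3) was fitted across all genes averaging 1 FPKM or more (12191 genes) on log2(FPKM + 1), with a mean-variance trend, no covariates and two-sided p-values adjusted by the Benjamini-Hochberg method at 0.05. The fit was tested on simulated data. Alternatives changed the pseudocount (0.1), the filter, the scaling (quantile, median of ratios, equal sums), the trend or the replicate block, or left out a library. Members and gene lists were chosen with earlier results of these data known. Named genes are the members, FOXO6, SIRT1 and up to 4 genes a list with the largest log2 fold change among those that passed. Others are marked where named, and 1 gene that met the rule is not reported here.

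Symbols were matched by Entrez identifier to RefSeq (GRCh38.p14, 16846 of 16878). Gene positions, transcripts, primer and seed matches came from GRCh37 with GENCODE annotation, promoters from RefSeq. The study's ChIP data were not analysed here.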

Additional observations from a re-analysis of the deposited data

How the results depend on the processing

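Of 99 member fold changes under other settings, 89 kept their direction and their side of the threshold, and the 10 that did not came from 4 members. KLF2 missed the threshold without the filter on low values (log2 fold change -0.72, adjusted p 0.0894), and leaving out 1 library gave -0.96 to -0.47. KLF6 turned to -0.03 after quantile normalization, -0.04 after median-of-ratios scaling and -0.02 with equal FPKM sums, and leaving out 1 library gave -0.01 to 0.10. CAT passed after quantile normalization (-0.18) and after median-of-ratios scaling (-0.20). FOXO3 ranged from -0.18 to 0.07 when 1 library was left out. The cause was not tested. Where a group was left with 1 library, that library was assumed to vary like the other group.

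Over all genes, 4521 passed, and 2691 to 4608 when 1 library was left out. The 2691 were reached without Control replicate 2 and 2744 without Control replicate 1. Of the 4521, 64.8% were higher, against 53.3% after quantile normalization, 49.6% after median-of-ratios scaling and 55.6% with equal FPKM sums. The replicate numbers are shared across groups, but no label says that they mark a shared batch, and deviations of same-numbered libraries had a correlation of 0.123. With the replicate block 5393 genes and 5 members passed, and it changed no member's call, while FOXO6, which is not a member, passed (adjusted p 0.0455). With 2 libraries a group and roughly 14 to 81 reads a library for FOXO1, FOXO4, FOXO6 and KLF2, small differences in these genes were not detectable.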

Other observations

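Relatives of the targets were described as well. Peroxide-removing enzymes beside CAT gave 8 genes, all tested, of which 5 rose, 0 fell and 3 did not pass (median log2 fold change 0.29), where 24.0% of all genes tested were higher and 13.1% lower. PRDX6 had 34.27 and 32.54 FPKM in Control but 51.68 and 50.35 in siSIRT1, a log2 fold change of 0.60 (adjusted p 0.000246 by limma). PRDX3 had a log2 fold change of 0.33 (adjusted p 0.00369 by limma), PRDX1 of 0.30 (adjusted p 0.00457 by limma) and PRDX5 of 0.30 (adjusted p 0.0236 by limma). After median-of-ratios scaling 3 of the 8 were higher, as they were without Control replicate 1, and 1 was higher without Control replicate 2. CITED4, the relative of CITED2, fell from 95.94 and 84.37 FPKM to 60.24 and 56.61, a log2 fold change of -0.62 (adjusted p 0.000455 by limma), the opposite direction to CITED2, and CITED1 was under the filter. Thioredoxin (TXN), the protein that TXNIP binds, rose from 55.84 and 55.78 FPKM to 83.41 and 79.26, a log2 fold change of 0.53 (adjusted p 0.000297 by limma), and was the 1 gene of 7 alpha-arrestin, MondoA and thioredoxin genes tested that passed. Of 8 further KLF genes tested, 1 passed, KLF11, which fell with a log2 fold change of -0.54 (adjusted p 0.0089 by limma) and did not pass without Control replicate 2.

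Forkhead genes outside the FOXO family numbered 35 with values and 20 tested, of which 6 rose, 5 fell and 9 did not pass, where 24.0% of all genes tested were higher and 13.1% lower. After quantile normalization 3 were higher and 7 lower. Without 1 library the counts were 3 and 2 (Control replicate 1), 3 and 1 (Control replicate 2), 4 and 3 (siSIRT1 replicate 1) and 5 and 6 (siSIRT1 replicate 2). FOXS1 fell from 6.26 and 8.37 FPKM to 1.09 and 1.41, a log2 fold change of -1.88 (adjusted p 7.16e-05 by limma). FOXF2 rose from 2.27 and 2.83 FPKM to 6.33 and 6.53 (1.07, adjusted p 0.000386 by limma). FOXM1, a forkhead factor of dividing cells, rose from 17.15 and 17.47 to 29.4 and 27.44 (0.68, adjusted p 0.000248 by limma), and FOXH1 from 4.84 in both to 7.87 and 6.78 (0.51, adjusted p 0.00817 by limma).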
